A study of Capsicum chinense with 22 samples.

Results

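Receptor-like protein kinases are plant membrane proteins that carry a ligand-binding outer part, a single membrane span and a protein kinase inside the cell. The outer part gives each subfamily its name and its usual ligand: leucine-rich repeats bind small secreted peptides and brassinosteroids, malectin-like domains of the FERONIA type bind RALF peptides and pectin, lysin motifs bind chitin fragments, and lectin, cysteine-rich and proline-rich domains have been tied to the cell wall and to defence. In fruit these receptors are known mainly from cell division, expansion, cuticle and vascular development of the young organ and from immunity, and less from ripening itself.

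The 290 genes described here were those of the deposited table of 16922 genes whose annotated name held "receptor-like protein kinase" (121 genes), "receptor-like serine/threonine" (124), "receptor protein kinase" (7) or "receptor kinase" (38). They carried 156 distinct names, and 33 of them were named inactive, that is, predicted to lack kinase activity. By words in their names, 135 were leucine-rich repeat (LRR) kinases, 31 G-type lectin kinases, 19 of the CrRLK1L group of FERONIA, 17 cysteine-rich kinases (CRK), 12 proline-rich extensin-like kinases (PERK), 11 L-type lectin kinases, 11 of the LRK10L type, 3 wall-associated kinases (WAK) and 2 with lysin motifs (LysM). Some names were sorted by the gene they hold, such as HAIKU2 among the LRR kinases. The other 49 matched no pattern used for the sorting, and kinases of the named subfamilies may be among them.

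RNA was measured in pericarp, the fruit wall, of 4 *Capsicum chinense* accessions grown untreated in a greenhouse, at 20 days after anthesis (DAA), when the fruit is immature, and at 60 DAA, when it is ripe. Hab and A101 are described by the study as pungent and Biq and A18 as non-pungent, while Hab and Biq ripen red and A101 and A18 yellow. There were 22 libraries in 8 groups, with 3 libraries a group except 2 for A18 at 20 DAA and 2 for Hab at 60 DAA, and each library came from pooled fruits of a single plant. A value is the authors' variance-stabilized expression, close to a log2 scale, centred on each gene's own mean over the libraries, so that levels can be compared between libraries for a gene but not between genes. Sequencing depth cannot be read from these values. A difference of 1 unit is close to a doubling, and a gene was called when limma's adjusted p, over all 16922 genes, was under 0.05 and the difference was at least 1.

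Over the 290 members every library (22 of 22) lay nearest to a library of its own group, and no pair of libraries held identical values. Library medians over all genes ran from −0.094 to 0.037. The spread within groups was widest for Hab at 20 DAA, with a median SD of the members of 0.214, against 0.071 to 0.144 in the other groups. Ripening markers set the stages apart as labelled: the mean of 6 such genes, capsanthin/capsorubin synthase among them, lay between −3.82 and −2.59 in the 11 libraries of 20 DAA and between 2.31 and 3.71 in the 11 of 60 DAA. Other marker lists moved with the stage as well. The mean of 9 vascular genes went from 0.57 to 1.18 at 20 DAA to −1.20 to −0.75 at 60 DAA, and the mean of 6 epidermal genes from 0.43 to 1.90 to −1.09 to −0.78. The mean of 49 chloroplast genes ran from −0.67 to 2.35 and then from −1.82 to −0.02, that of 11 pollen-named genes from −0.15 to 0.36 and from −0.36 to −0.02, and that of 6 seed genes from −0.68 to −0.45 and from −0.47 to 1.78. No gene name of the table matched the terms searched for placental capsaicin synthesis (capsaicin, acyltransferase Pun1, vanillin aminotransferase). Other genes of that pathway were not searched for. The part of these tissues in the receptor results was not tested, and in bulk pericarp fewer cells of a type and less RNA per cell cannot be told apart.

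The first comparison asked how the receptor kinases differed between immature and ripe pericarp. More members were lower than higher at 60 DAA in every accession. In Hab 147 members (50.7%) were called lower and 38 (13.1%) higher, where 26% and 18.7% of all genes were. In A101 the members' counts were 135 (46.6%) and 25 (8.62%), beside 19.7% and 10.6% of all genes. In Biq they were 150 (51.7%) and 38 (13.1%), beside 23.3% and 15.5%, and in A18 140 (48.3%) and 31 (10.7%), beside 20.6% and 11.4%. In each accession the members' share called lower was thus well above that of all genes, and their share called higher below it. After quantile normalization the members called higher in A101 were 40 (13.8%, beside 17.4% of all genes).

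**Figure D1:**
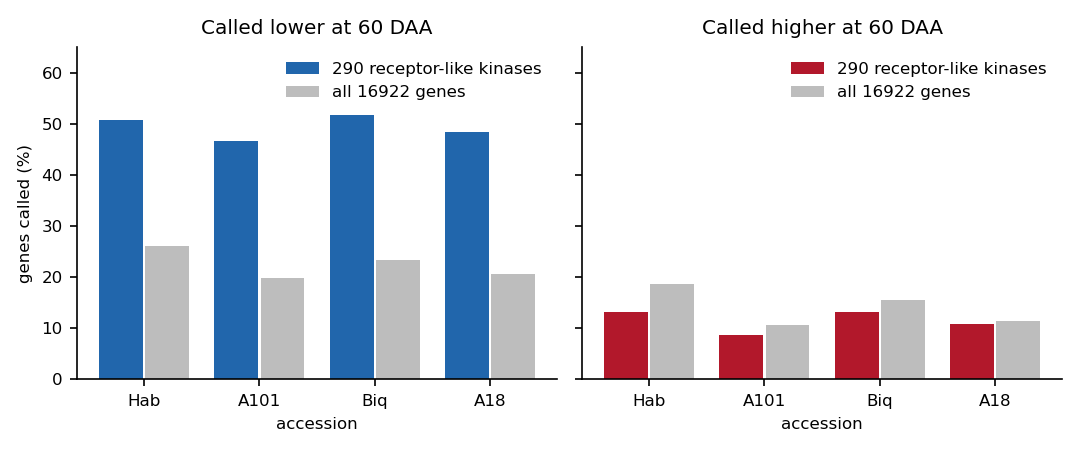
Share of genes called lower (left) and higher (right) at 60 than at 20 DAA, in percent, for the 290 receptor-like kinases (coloured bars) and all 16922 genes (grey bars) in each accession. The coloured bars for lower calls stand between 46.6% and 51.7%, above grey bars of 19.7% to 26%, while those for higher calls stand below the grey ones.

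Averaged over the accessions, 141 members fell (48.6%, beside 21.5% of all genes) and 34 rose (11.7%, beside 13.2%), and the median difference of the members was −0.96, beside −0.085 for all genes. The 602 other genes with kinase in their name had a median of −0.12, with 124 lower and 72 higher, which is near the figures for all genes. Large differences were frequent on the falling side: 66 members (22.8%) fell by 2 units or more, beside 8.45% of all genes, and 10 (3.45%) rose as far, beside 4.13%. Of the 290 members 277 had an adjusted p under 0.05, but 102 of these differed by less than 1 unit and were not called. No share of all genes is given for adjusted p alone, so the 277 cannot be read as a trait of the members. Both medians depend on the scaling, because quantile normalization of the libraries moved the median of all genes by 0.135. That normalization left 131 members lower and 41 higher, and the share of all genes under it is not given here.

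Few members were called in opposite directions in different accessions. In all 4 accessions 108 members were called lower (37.2%, beside 13.5% of all genes) and 16 higher (5.52%, beside 6.7%). Every library of 60 DAA lay below every library of 20 DAA for 139 members (47.9%, beside 21.6%), and above for 31 (10.7%, beside 15.7%). In no accession were 62 members called. PERK1 (LOC107839097), At4g08850 (LOC107867529) and At1g56140 (LOC107878888), the last chosen after its values were seen, were called higher in some accessions and lower in others. For 48 members at least 3 libraries shared the lowest value, taken here as a floor of the measurement, and the size of their differences is limited by it.

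LRR kinases, which include the receptors of most known signalling peptides, made up 76 of the 141 falls. Of all 135, 11 rose, and the median difference was −1.44. The 49 kinases that matched no subfamily pattern, among which LRR kinases may be, were similar, with 29 lower, 4 higher and a median of −1.31. Among the lectin kinases, 15 of 31 G-type members fell and 4 rose (median −0.99), and 4 of 11 L-type members fell and 2 rose (median −0.38). For CRKs the counts were 8 lower and 2 higher of 17 (median −0.82). The CrRLK1L group had 5 lower and 5 higher of 19 (26.3% each, median −0.24) and the PERKs 2 lower and 2 higher of 12 (16.7% each, median −0.40), where 21.5% of all genes were lower and 13.2% higher. In Biq 6 PERKs were lower and 2 higher (50% and 16.7%, beside 23.3% and 15.5% of all genes). Lower and higher PERKs numbered 3 and 3 in Hab, 2 and 2 in A101, and 2 and 3 in A18. After quantile normalization PERK1 (LOC107839097) and PERK8 (LOC107855495) had −0.95 and −0.91 in Biq, under 1 unit. LRK10L kinases had 1 lower and 2 higher of 11 (median 0.18). Whether subfamilies differ from each other was not tested.

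**Figure D2:**
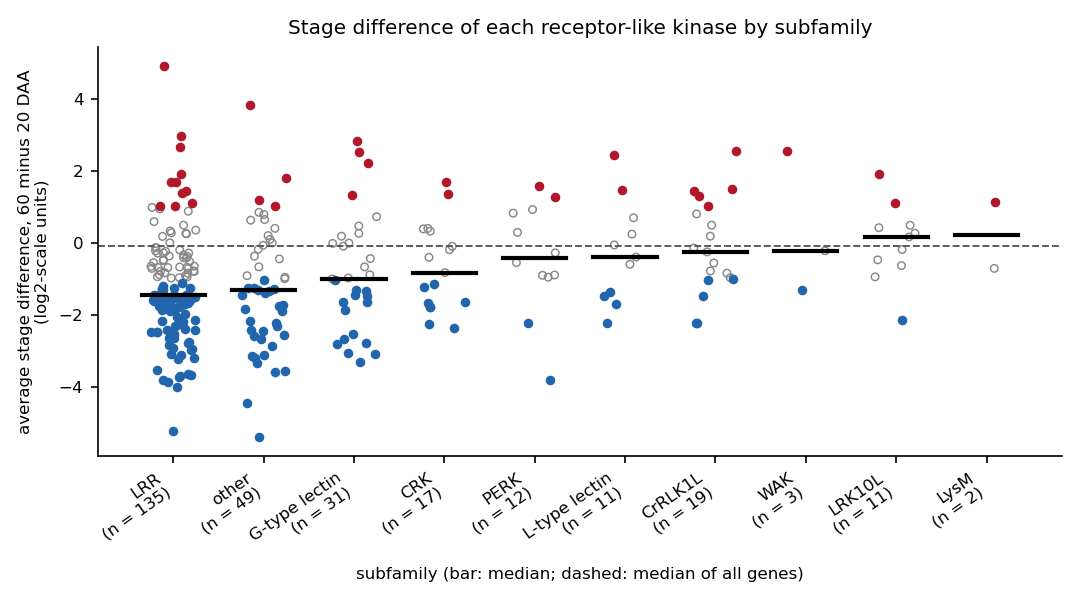
Average stage difference, 60 minus 20 DAA, in log2-scale units for each of the 290 members, by subfamily; blue points fell, red points rose, open points were not called, black bars are medians and the dashed line is the median of all genes (−0.085). LRR and unclassified kinases have medians of −1.44 and −1.31 and few red points. The medians of CrRLK1L, WAK, LRK10L and LysM kinases lie near the dashed line, with single members well above and below it.

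CLE peptides are signals that set the size of meristems and the course of vascular development, and 1 of their receptors was among the deepest falls. BAM1 (LOC107860143), which in Arabidopsis binds CLE peptides, had values of 1.96, 2.75 and 2.92 (lowest, median and highest of 11 libraries) at 20 DAA and −3.18, −2.62 and −1.64 at 60 DAA. The stages did not overlap, and the average difference was −5.21 (SE 0.14, limma adjusted p = 1.75e-17), the accessions lying between −5.76 (Hab) and −4.95 (A18). BAM3 (LOC107839869), the receptor of a phloem CLE peptide, ran from 1.05 to 2.29 and then from −2.05 to −1.57, a difference of −3.64 (SE 0.087, adjusted p = 2.89e-18). CLAVATA1 (LOC107866867), their best-known relative, fell less, by 1.54 (SE 0.069, adjusted p = 4.35e-14), with values from 0.004 to 1.41 and from −1.29 to −0.18; in Biq its difference of −0.92 stayed under 1 unit. No gene of the table was named as a CLE peptide, so the ligands have no value here.

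Of the receptors known from vascular tissue that are named here, both TDR copies and PXL1 fell and BRI1-like 3 rose. Both copies of TDR, the receptor of a CLE-type factor that keeps vascular stem cells from turning into xylem, were lower without overlap: LOC107863520 ran from 0.54 to 1.44 at 20 DAA and from −1.18 to −0.35 at 60 DAA (difference −1.87, SE 0.067, adjusted p = 1.39e-15), and LOC107877673 from 0.48 to 1.28 and from −1.47 to −0.56 (−1.75, SE 0.063, adjusted p = 1.53e-15). In Biq the first copy's difference of −1.14 became −0.93 after quantile normalization. PXL1 (LOC107845378), a close relative of TDR, fell by 1.83 (SE 0.063, adjusted p = 7.56e-16), with 8 libraries at the floor. Of the 9 vascular marker genes 6 were called lower on average, with xylem cysteine proteinase 2 (LOC107859272) at −4.27. The receptors' part in or outside vascular cells was not tested. In the other direction, BRI1-like 3 (LOC107878874), a brassinosteroid receptor of vascular cells in Arabidopsis, had values of −1.07 to −0.41 and then 0.28 to 1.49 and rose by 1.47 (SE 0.067, adjusted p = 6.98e-14).

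Receptors known from organ growth and the epidermis differed by gene and by copy. ERECTA (LOC107838950), which promotes organ growth and spaces stomata, ran from 0.84 through a median of 1.34 to 1.80 at 20 DAA and from −1.98 through −1.42 to −0.65 at 60 DAA. Its average difference was −2.64 (SE 0.079, adjusted p = 7.96e-17), and it was called lower in each accession, between −3.31 in Hab and −2.08 in A101. Its ERL1 relatives had −3.66 (LOC107863402) and 0.50 (LOC107875241, not called). The MAP kinase kinase kinases named after YODA, which acts downstream of ERECTA in Arabidopsis, went both ways, from −2.70 for LOC107860324 to 4.34 for LOC107850668. GSO1 and GSO2, which seal the embryonic cuticle and the endodermal barrier, differed by copy. GSO2 fell in both copies, with −2.48 (LOC107841704, SE 0.075, adjusted p = 9.89e-17) and −1.599 (LOC107878023, SE 0.076, adjusted p = 1.1e-13), whereas the GSO1 copy LOC107862548 rose by 2.99 and is described with the accessions below, and the GSO1 copy LOC107845827 had −0.67 and was not called. Of the epidermal markers 5 of 6 were called lower, and their part in these values was not tested.

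HAIKU2, which controls endosperm growth and seed size, and HSL1, a relative of the abscission receptor HAESA, each showed copies with unlike changes. HAIKU2 copy LOC107872768 had 1.40, 1.99 and 2.26 (lowest, median, highest) at 20 DAA and −2.19, −1.95 and −1.59 at 60 DAA, a difference of −3.87 (SE 0.079, adjusted p = 2.68e-19) that lay between −4.03 and −3.71 in the 4 accessions. Copy LOC107867316 fell by 2.63 (SE 0.11, adjusted p = 1.4e-14), while copy LOC107840117 ran from −1.34 to 0.19 and then from 0.22 to 1.498 and rose by 1.70 (SE 0.12, adjusted p = 6.59e-11). The rise of LOC107840117 in Biq, 1.07, was not called without Biq 20 DAA library b (0.73) or library c (0.996). Of 4 HSL1 copies 3 fell, with differences of −3.10 (LOC107863513), −2.28 (LOC107878387) and −1.74 (LOC107867314), and LOC107847804, at −0.13 (SE 0.075, adjusted p = 0.119), was not called.

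The largest rise of any member belonged to LOC107840970, named receptor-like protein kinase 5, the name under which HAESA was first described in Arabidopsis, where it triggers the shedding of floral organs. Its 11 libraries of 20 DAA ran from −3.14 through −2.54 to −1.79 and those of 60 DAA from 0.099 through 3.40 to 4.25. The average difference was 4.94 (SE 0.093, adjusted p = 8.64e-20), and each accession was called higher: Hab by 4.50, A101 by 5.70, Biq by 3.21 and A18 by 6.34. The stages did not overlap in any accession.

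Some receptor kinases serve as co-receptors that pair with many LRR receptors. Of 7 genes named somatic embryogenesis receptor kinase (SERK) or BRASSINOSTEROID INSENSITIVE 1-associated receptor kinase 1 (BAK1), 2 were called lower on average (28.6%, beside 21.5% of all genes) and the median was −0.35. BAK1 copy LOC107873059 fell by 1.67 (SE 0.081, adjusted p = 1.85e-13) and SERK2 copy LOC107867591 by 1.52 (SE 0.075, adjusted p = 2.34e-13), both without overlap of the stages. The other BAK1 copies had −0.40 (LOC107843741) and −0.35 (LOC107840017). The 2 SERK2-like copies lay on the rising side, with averages of 0.95 and 0.996, under the minimum difference. In Hab 2 of the 7 genes were called lower and 2 higher (28.6% each, beside 26% and 18.7% of all genes). The median of the 7 in Hab was 0.19. In A101 the fall of LOC107873059, −1.04, was −0.96 after either normalization and −0.97 without A101 60 DAA library b. TMK1 (LOC107850702), which acts in auxin signalling at the cell surface, fell by 3.09 (SE 0.13, adjusted p = 2.12e-14), with values from 1.40 to 1.88 and from −2.23 to −0.55, while its TMK1-like relative LOC107840346 had −0.23.

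Receptors of immunity followed both directions. EFR (LOC107859253), which in Arabidopsis recognizes a bacterial elongation factor, had 1.33, 1.68 and 3.30 (lowest, median, highest) at 20 DAA and −2.06, −1.86 and −1.71 at 60 DAA. It fell by 3.81 (SE 0.085, adjusted p = 1.07e-18), and 4 libraries of 60 DAA shared the floor value, which limits the measured fall. PEPR2 (LOC107840233), a receptor of the Pep danger peptides, ran from 0.90 to 1.52 and from −1.43 to −0.54 and fell by 2.30 (SE 0.067, adjusted p = 5.92e-17). The 2 chitin elicitor receptor kinase 1-like genes, of the LysM type, parted: LOC107878173 rose by 1.15 (SE 0.062, adjusted p = 1.07e-12), with no overlap of the stages, and LOC107839520 had −0.70 (SE 0.073, adjusted p = 2.75e-08), under the minimum difference. EMS1, which specifies the anther tapetum, had a copy that fell by 1.66 (LOC107863321) and a copy at −0.21 (LOC107867621).

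Members named inactive, which may still signal as partners of active kinases, held the deepest fall of all. The inactive receptor kinase At1g48480 (LOC107862133) had values of 2.37, 2.64 and 3.14 (lowest, median, highest) at 20 DAA and −3.13, −2.72 and −2.42 at 60 DAA. The difference was −5.39 (SE 0.067, adjusted p = 2.66e-22), with the 4 accessions between −5.74 and −5.24. At4g23740 (LOC107855302) had −4.44 (SE 0.06, adjusted p = 6.43e-22) with 6 libraries at the floor, and At3g03770 (LOC107860752) −3.997 (SE 0.11, adjusted p = 1.47e-17). Of the 33 members named inactive 20 fell (60.6%, beside 21.5% of all genes), with a median of −1.73. Of the 257 others 121 fell (47.1%), with a median of −0.94. With the genes at a floor left out, which takes away 9 of the 33, 12 inactive members were called lower. In that setting 106 of all 242 members tested were lower, so the inactive members stood closer to the rest. The share of all genes in it is not given here. The 14 members whose name holds inactive receptor kinase belong to the 49 that matched no subfamily pattern. Of these 14, 11 were lower (78.6%), and the median was −2.50.

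**Figure D3:**
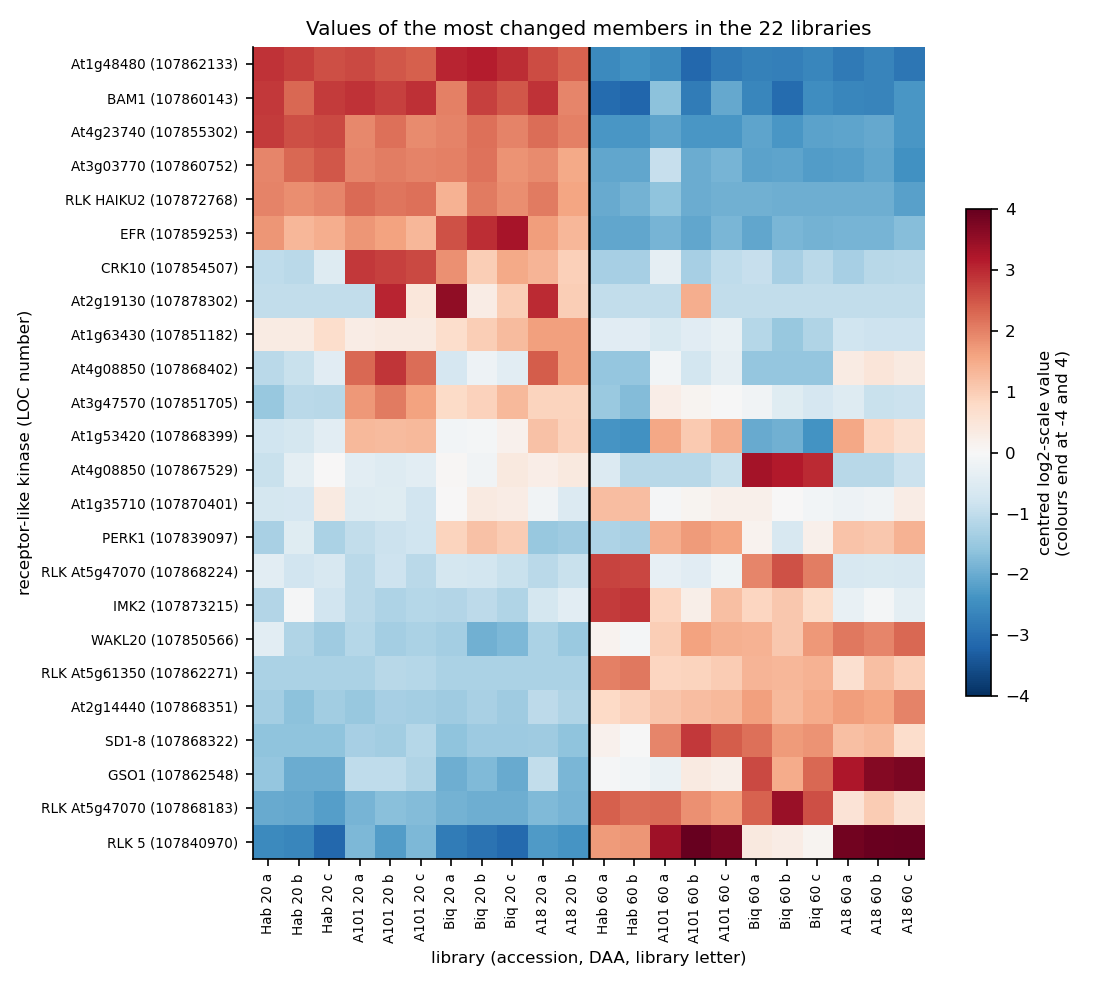
Centred log2-scale values of 24 members in the 22 libraries, 20 DAA to the left and 60 DAA to the right of the black line, sorted from the deepest average fall (At1g48480, −5.39) to the largest rise (receptor-like protein kinase 5, 4.94); the members are those named for the largest stage, colour, pungency or accession differences, the number in parentheses is the LOC number, and colours end at −4 and 4. The top rows turn from red to blue in every accession, while rows in the middle, such as PERK1 and both At4g08850 genes, differ between accessions.

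The lectin kinases gave large changes in both directions. The G-type members At1g11410 (LOC107859520) and SD2-5 (LOC107878463) fell, with differences of −3.31 (SE 0.065, adjusted p = 1.62e-19) and −3.08 (SE 0.079, adjusted p = 7.37e-18) and no overlap of the stages. SD1-8 (LOC107868322) had values of −1.62 to −1.15 at 20 DAA and −0.01 to 2.82 at 60 DAA and rose by 2.85 (SE 0.096, adjusted p = 5.61e-16). RLK1 (LOC107874211) rose by 2.53 (SE 0.071, adjusted p = 3.24e-17), between 1.88 in Hab and 2.85 in A18. At2g19130 (LOC107878302) is a weak call: 14 libraries sat at its floor of −0.981, single libraries of 20 DAA in A101, Biq and A18 reached 3.05, 3.54 and 2.97, and its falls in Biq (−2.58) and A18 (−2.96) were no longer called without library a of that group at 20 DAA (−1.61 and −1.97). Among the L-type members, VIII.1 (LOC107843562) fell by 2.23 (SE 0.065, adjusted p = 5.73e-17), and IV.1-like (LOC107842808) ran from −1.41 to −0.90 and from 0.17 to 2.38 and rose by 2.46 (SE 0.091, adjusted p = 2.33e-15).

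Receptors of the cell wall and of RALF peptides were divided. Of 5 FERONIA copies, 1 fell and 1 rose. LOC107860437 had 0.72, 1.15 and 1.49 (lowest, median, highest) at 20 DAA and −2.02, −1.08 and −0.42 at 60 DAA, a fall of 2.22 (SE 0.064, adjusted p = 4.75e-17). LOC107860435 ran the other way, from −1.02 to −0.38 and then from 0.42 to 0.94, a rise of 1.45 (SE 0.068, adjusted p = 8.47e-14) found in each accession (1.16 to 1.64). The other 3 copies, LOC107860436, LOC107853319 and LOC107842405, had average differences of −0.96, −0.55 and −0.13 with overlapping stages. Of 3 copies of THESEUS 1, which in Arabidopsis senses damage to cellulose, LOC107845413 and LOC107871312 fell, with differences of −1.47 and −1.02, whereas LOC107878693 rose by 1.52 (SE 0.089, adjusted p = 3.81e-12). HERK 1 copy LOC107873534 rose by 1.04 (SE 0.067, adjusted p = 1.84e-11), and ANXUR1 (LOC107842672), a pollen tube receptor in Arabidopsis, had 0.82. The CrRLK1L member At5g61350 (LOC107862271) had 9 libraries of 20 DAA at the floor of −1.28 and values of 0.64 to 2.12 at 60 DAA, a rise of 2.58 (SE 0.055, adjusted p = 5.01e-19). The RALF peptides in the table, ligands of this group, were as divided: of 7 genes 3 fell, among them LOC107860439 at −4.43 with 9 libraries at the floor, and 2 rose, the larger being LOC107852317 at 1.71 (SE 0.40, adjusted p = 6.35e-04).

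Wall-associated, proline-rich, cysteine-rich and LRK10L kinases complete the subfamilies. The wall-associated kinase-like 20 gene (LOC107850566) ran from −1.93 to −0.41 and from −0.087 to 2.30 and rose by 2.56 (SE 0.12, adjusted p = 9.61e-14), kinase-like 15 (LOC107846833) fell by 1.29 (SE 0.072, adjusted p = 1.63e-12), and kinase-like 14 (LOC107860355) had −0.21. The rise of kinase-like 20 in Hab, 1.04, dropped under 1 unit without Hab 20 DAA library b (0.95) or c (0.83) or Hab 60 DAA library a (0.93). PERK9 copy LOC107860400 fell by 3.79 (SE 0.18, adjusted p = 1.23e-13) and PERK9 copy LOC107876611 rose by 1.59 (SE 0.057, adjusted p = 1.5e-15). Of 7 CRK10 copies 6 fell (median −1.78), and 6 of the 7 had at least 3 libraries at the floor, while of 6 CRK2 copies 1 fell (median −0.13). CRK3 (LOC107848438) rose by 1.361 (SE 0.058, adjusted p = 2.37e-14), by nearly the same amount in the 4 accessions (1.24 to 1.49). LRK10L 1.2 (LOC107850735) rose by 1.93 (SE 0.078, adjusted p = 8.9e-15) and LRK10L 1.5 (LOC107848075) fell by 2.12 (SE 0.08, adjusted p = 2.7e-15).

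Copies that share an annotated name were common, since 208 members fell under 74 names with at least 2 copies. For 8 of these names copies were called in both directions: At5g47070, PERK9, FERONIA, HAIKU2, THESEUS 1, At1g06840, At1g68400 and IMK2. For 15 names every copy fell, such as the 4 copies of At3g03770, and for 0 names did every copy rise. A shared name means only that the copies were annotated after the same Arabidopsis gene. Reads were assigned by the authors to transcripts of *C. annuum*, and where copies are nearly identical the split of reads between them is uncertain.

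**Figure D4:**
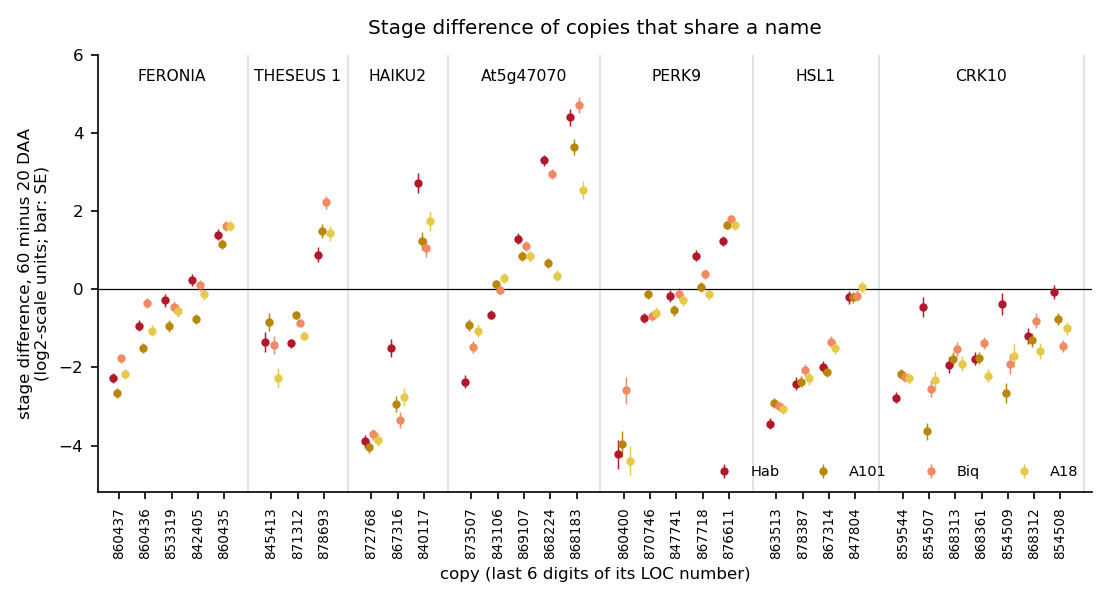
Stage difference, 60 minus 20 DAA, in log2-scale units for each copy of 7 names, with 1 point for each accession and bars of 1 SE; copies are ordered within a name from the lowest to the highest average. FERONIA runs from −2.22 to 1.45 and HAIKU2 from −3.87 to 1.70 on average, while the averages of the HSL1 and CRK10 copies are at most −0.13.

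The next comparison asked whether the stage difference was the same in red and in yellow accessions. It compares only Hab and Biq with A101 and A18, and holds for these accessions. The study warns that its red-fruited *C. annuum* reference may bias its comparison by colour, and the part of this here was not tested. For 26 members (8.97%, beside 4.63% of all genes) the difference was lower in the red accessions, and for 9 (3.1%, beside 6.38%) it was higher, the reverse of the balance over all genes. With genes at a floor left out, 24 members (9.92%, beside 4.43%) were lower and 3 (1.24%, beside 5.94%) higher. The LRR group held 16 of the 26 (11.9% of the LRR kinases) and the G-type lectin kinases 6 (19.4% of theirs), beside 8.97% of all members. On average over the accessions 10 of the 26 fell and 3 rose. For 25 of the 26 both red accessions had lower stage differences than both yellow ones. Chloroplast genes also moved with colour, since 34 of 49 had a higher stage difference in the red accessions and 5 a lower one, and their part in the receptor result was not tested.

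PERK1 copy LOC107839097 had the widest contrast by colour. In Hab it had −1.30, −0.48 and −1.26 at 20 DAA and −1.22 and −1.29 at 60 DAA, and in Biq 0.88, 1.17 and 1.02 and then 0.13, −0.64 and 0.21. In A101 it went from −0.98, −0.85 and −0.80 to 1.46, 1.70 and 1.57, and in A18 from −1.52 and −1.41 to 1.14, 1.07 and 1.39. It thus rose in both yellow accessions, with no overlap of libraries, by 2.45 (SE 0.20) and 2.67 (SE 0.23), had −0.24 (SE 0.23) in Hab and fell by 1.12 (SE 0.20) in Biq. The contrast was −3.24 (SE 0.21, adjusted p = 1.58e-09). The fall in Biq was −0.95 after quantile normalization and −0.85 without Biq 60 DAA library b, both under 1 unit.

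Receptor-like protein kinase 5 (LOC107840970) rose less in the red accessions, with a contrast of −2.17 (SE 0.19, adjusted p = 5.2e-08). At 60 DAA it had 1.71 and 1.76 in Hab and 0.39, 0.29 and 0.099 in Biq, but 3.40, 4.10 and 3.80 in A101 and 3.86, 3.97 and 4.25 in A18. At1g53420 copy LOC107868399 was lower in red fruit at both stages. It fell by 1.75 (SE 0.21) in Hab and by 2.10 (SE 0.19) in Biq and had 0.071 (SE 0.19) in A101 and −0.044 (SE 0.21) in A18, a contrast of −1.94 (SE 0.20, adjusted p = 4.22e-07). All 3 members of that name had a stage difference called lower in the red accessions, and their median contrast was −1.84. ERL1 (LOC107863402), a relative of ERECTA chosen after its values were seen, had differences of −4.48 (Hab) and −4.31 (Biq) against −2.96 (A101) and −2.88 (A18), a contrast of −1.47.

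In the other direction stood 2 copies of At5g47070, a kinase of the receptor-like cytoplasmic type. LOC107868224 went from −0.41, −0.77 and −0.65 to 2.72 and 2.68 in Hab and from −0.70, −0.75 and −0.89 to 1.94, 2.54 and 2.05 in Biq. In A101 it went only from −1.07, −0.83 and −1.07 to −0.33, −0.44 and −0.17, and in A18 from −1.07 and −0.89 to −0.63, −0.62 and −0.63. The rises were 3.31 (SE 0.15) and 2.96 (SE 0.13) in the red accessions against differences of 0.67 (SE 0.13) and 0.35 (SE 0.15) in the yellow ones, a contrast of 2.62 (SE 0.14, adjusted p = 8.6e-11). Copy LOC107868183 rose in all 4 accessions, by 3.84 on average (SE 0.11, adjusted p = 3.41e-17), and more in the red ones (contrast 1.47, SE 0.22, adjusted p = 2.23e-05). At4g08850 copy LOC107867529 was called higher in Biq alone, from 0.061, −0.13 and 0.40 to 3.32, 3.19 and 2.99, a rise of 3.06 (SE 0.19, adjusted p = 1.69e-11). It fell by 1.34 (SE 0.21) in A18, where 2 of the 3 libraries of 60 DAA were at the floor, and the contrast of 2.28 therefore rests on Biq and not on both red accessions.

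**Figure D5:**
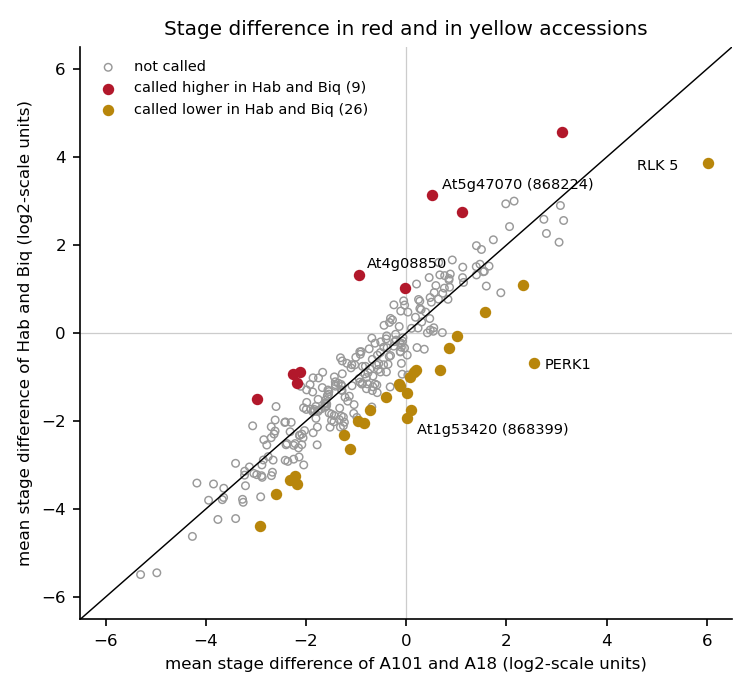
Mean stage difference of the red accessions Hab and Biq (vertical) against that of the yellow accessions A101 and A18 (horizontal), in log2-scale units, for the 290 members; the line marks equal differences. Red points (9) had a stage difference called higher and brown points (26) one called lower in Hab and Biq. PERK1 lies furthest below the line, with a contrast of −3.24.

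By pungency few members differed. The stage difference was higher in the pungent accessions Hab and A101 for 5 members (1.72%, beside 1.65% of all genes) and lower for 6 (2.07%, beside 1.8%), shares near those of all genes. The 5 were At1g63430, IMK2, At1g35710, L-type lectin kinase IV.1-like and At5g49770 (LOC107843399), the last chosen after its values were seen. The count of 5 became 3 without Hab 20 DAA library a. The GSO1 copy LOC107862548 gave the largest contrast. At 60 DAA it had −0.045 and −0.10 in Hab and −0.26, 0.36 and 0.24 in A101, but 2.63, 1.47 and 2.28 in Biq and 3.22, 3.68 and 3.78 in A18, whereas all 11 libraries of 20 DAA lay between −2.01 and −0.998. It rose by 1.76 (SE 0.28) and 1.19 (SE 0.25) in the pungent accessions and by 4.04 (SE 0.25) and 4.97 (SE 0.28) in the others, a contrast of −3.03 (SE 0.27, adjusted p = 1.61e-07). In the opposite direction, At1g63430 (LOC107851182) fell by 2.27 in Biq and 2.46 in A18 and had −0.90 in Hab and −0.79 in A101, a contrast of 1.52 (SE 0.14, adjusted p = 3.27e-07).

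The last comparison asked which members differed between accessions within a stage. At 20 DAA 54 members did (18.6%, beside 15.9% of all genes), and at 60 DAA 82 did (28.3%, beside 30.2%), near the background at both stages. With genes at a floor left out, the count at 20 DAA was 35 (14.5%, beside 12.5%). Marker genes differed between accessions too, with 46 of 49 chloroplast and 4 of 6 epidermal genes at 20 DAA and 36 of 49 chloroplast and 6 of 6 seed genes at 60 DAA, and their part in these counts was not tested. Where members differed, Hab was often the lowest accession: it had the lowest mean for 21 of the 54 (38.9%, beside 31.9% of all genes called) and for 47 of the 82 (57.3%, beside 36.3%). Biq was the lowest for 6 of the 82 (7.32%, beside 19.2%), and A18 the highest for 4 of the 54 (7.41%, beside 25.2%).

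The widest range between accessions at 20 DAA belonged to CRK10 copy LOC107854507. It had 2.82, 2.74 and 2.63 in A101, 1.82, 0.997 and 1.52 in Biq and 1.363 and 0.95 in A18, against −1.03, −1.08 and −0.52 in Hab, a range of means of 3.61 (limma moderated F, adjusted p = 9.89e-10). At 60 DAA all accessions were near its floor of −1.33, so that Hab, at −0.45 (SE 0.25), was the only accession in which no fall was called. Other members split the immature accessions differently. At4g08850 copy LOC107868402 was high in A101 (2.30, 2.87 and 2.22) and A18 (2.41 and 1.64) and low in Hab (−1.07, −0.90 and −0.45) and Biq (−0.66, −0.20 and −0.41), a range of 3.27 (adjusted p = 1.01e-10). At3g47570 copy LOC107851705 was below −1.0 in the 3 Hab libraries and between 0.77 and 2.07 in the other 8, a range of 3.03 (adjusted p = 1.64e-10).

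At 60 DAA the widest range was that of At4g08850 copy LOC107867529 (4.19, adjusted p = 4.54e-13), which was high in Biq as described above. Receptor-like protein kinase 5 (3.76, adjusted p = 1.98e-12) and At1g53420 copy LOC107868399 (3.75, adjusted p = 1.78e-12) followed, and the order of the first was A18 and A101, whose libraries overlapped, then Hab, then Biq. The SERK2-like gene LOC107876398 was high at 60 DAA in Hab (1.54 and 1.64) and A18 (1.37, 2.20 and 1.42) and lower in A101 (−0.85, −1.15 and −1.12) and Biq (0.12, −0.78 and 0.44), a range of 2.70 (adjusted p = 9.95e-05). Its rise of 1.87 in A18 rests on 2 libraries of 20 DAA and was not called without library a (1.39).

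Genes that act with the receptors gave a mixed picture, listed by name patterns that do not include the members. Of 24 receptor-like kinases whose names fall outside the 4 phrases, 12 fell and 2 rose on average (median −0.999), among them TMK3 (LOC107875681) at −4.06 and TMK4 (LOC107851024) at 1.14. Of 8 receptor-like proteins without a kinase 3 fell and 2 rose: CLAVATA2 (LOC107851492) had −1.95, and a copy of receptor-like protein 12 (LOC107870488) had 4.47. Inside the cell, 20 receptor-like cytoplasmic kinases were divided, with 5 lower and 4 higher (median 0.44), and 34 genes of the MAP kinase cascade had 7 lower and 5 higher (median −0.33). Of 8 ROP guanine nucleotide exchange factors, which link FERONIA-type receptors to small GTPases, 4 fell (median −0.77). All 3 respiratory burst oxidases, which make reactive oxygen after receptor activation, fell, with a median of −2.79, and for 2 of them several libraries were at the floor. The share called lower in these lists can be read against the 21.5% of all genes.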

How the data were processed

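The authors trimmed reads with fastp 0.23.1, used the Zunla-1 genome and transcripts of *C. annuum* as the Salmon 1.6.0 index, and filtered and transformed counts with DESeq2 1.36.0 in R 4.2.0. The deposited table holds the authors' variance-stabilized values, close to log2, which were found to be centred for each gene (largest absolute gene mean 0.000364). It holds no counts, so the depth cannot be read from it, and library sizes shown elsewhere by the study were not used here. No interval that rests on depth is given, and errors come from the spread among libraries of a group. Genes below the authors' filter were not analysed here. No sequences or coordinates are given, since 0 of the gene IDs are in the reference table used here.

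Columns name accession and stage but no replicate, and libraries are lettered by column order within a group. A limma 3.58.1 model (R 4.3.3) gave each of the 8 groups a mean, with eBayes without trend (14 residual and 4.51 prior degrees of freedom). Its p-values were adjusted by Benjamini and Hochberg over all genes. It tested the stage difference of every accession, their average, the differences by colour and by pungency, and the moderated F over accessions within a stage. The fit was tested on simulated data. Plots used matplotlib 3.10.9 under Python 3.11.15.

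The members, subfamilies and lists were chosen with earlier results of these data known. The 92 members eligible for naming were the 6 largest rises and falls without overlap, the 2 largest each way in each accession, the 3 largest each way by colour and by pungency, the 4 widest ranges within each stage, up to 2 each way of each subfamily, and a fixed list of well-studied receptors. Each replicate came from a single plant according to the study's methods, and the p-values measure the spread between such samples.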

Additional observations from a re-analysis of the deposited data

Results flagged for a closer look

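Among the members eligible for naming, those below had stage differences that differed between pairs of accessions in a direct test. The test was a limma contrast, adjusted over all genes, with a difference of at least 1. Other called members are not listed, so the balance here is not that of the 26 lower and 9 higher by colour. By colour, as Hab and Biq minus A101 and A18, PERK1 (LOC107839097) had −3.24 and receptor-like protein kinase 5 (LOC107840970) −2.17. At1g53420 (LOC107868399) had −1.94, CRK35 (LOC107877665) −1.25 (SE 0.21, adjusted p = 7.25e-05) and GSO1 copy LOC107845827 −1.08 (SE 0.21, adjusted p = 3.08e-04). CRK35 rose on average, by 1.71, and most in A18 (2.81).

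In the other direction by colour were At5g47070 copies LOC107868224 (2.62) and LOC107868183 (1.47), At4g08850 copies LOC107867529 (2.28) and LOC107868402 (1.33), IMK2 (LOC107873215, 1.65, SE 0.24, adjusted p = 1.81e-05), CRK10 copy LOC107854507 (1.49) and HERK 1 copy LOC107853244 (1.05, SE 0.10, adjusted p = 2.82e-07). IMK2, named inactive, rose in Hab (3.50), A101 (1.92) and Biq (2.02), while A18 stood at 0.30. For CRK10 copy LOC107854507 Hab had −0.45, whereas Biq (−2.55) fell as far as A18 (−2.33).

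By pungency, as Hab and A101 minus Biq and A18, GSO1 copy LOC107862548 had −3.03, wall-associated kinase-like 20 (LOC107850566) −1.48 (SE 0.24, adjusted p = 2.29e-04) and At4g08850 copy LOC107867529 −1.34. IMK2 (LOC107873215) had 1.55, At1g63430 (LOC107851182) 1.52, At1g35710 (LOC107870401) 1.05 (SE 0.23, adjusted p = 0.00265) and L-type lectin kinase IV.1-like (LOC107842808) 1.02 (SE 0.18, adjusted p = 6.04e-04). IMK2 and At4g08850 copy LOC107867529 appear under both groupings: for the first A18 alone was not called, and for the second Biq alone rose, by 3.06.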

How the results depend on the processing

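No named stage difference past the threshold (258 gene and accession values) changed sign under quantile normalization, subtraction of library medians or removal of any of the 22 libraries in turn. Quantile normalization took 11 of them under the threshold and library medians 3, and 11 lost the call without some library; the cause was not tested. No paired analysis was possible because the columns carry no replicate numbers. Robust eBayes and library medians left all 19 counts of members within 1.5 times the reported ones, as did fits on a single accession for the 8 counts and each change of membership for the 2 counts they give.

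Without the minimum difference, counts of members called higher became 60 in Hab, 58 in A101, 62 in Biq, 53 in A18 and 69 on average (21 of them LRR kinases), by colour 65 higher and 87 lower, by pungency 29 higher and 44 lower, and between accessions 174 at 20 DAA and 200 at 60 DAA, since this setting adds small differences. No share of all genes is given for the counts without the minimum difference, so they cannot be read against a background. Quantile normalization gave 40 members higher in A101, and array weights 3 members higher by pungency. With genes at a floor left out, fewer members were tested, and the counts were 12 inactive members lower on average, 3 members higher by colour and 35 differing between accessions at 20 DAA. Leaving out each library in turn gave 140 to 143 members lower and 33 to 36 higher on average, 76 to 77 LRR kinases lower and 10 to 13 higher, 20 to 21 inactive members lower, 8 to 11 higher and 20 to 29 lower by colour, and 3 to 6 higher and 4 to 9 lower by pungency, where Hab 20 DAA library a gave the 3. Groups of 2 or 3 libraries and a depth that the table does not give limit how small a difference can be called, and genes at a floor have differences limited in size.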

Other observations

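Several names with many copies showed one direction without being singled out above. Of 7 members named after At4g27290, a G-type lectin kinase, 5 fell on average (median −1.44) and 3 of the 7 (LOC107852852, LOC107867291 and LOC107878726, chosen after their values were seen) had a lower stage difference in the red accessions. Of 7 named after At3g47570, an LRR kinase, 4 fell (median −1.10). Of 290 members 13 had an adjusted p of at least 0.05 for the average stage difference, a count without a share of all genes beside it. Among them was the FERONIA copy LOC107842405 (−0.13), where A101 had −0.76 and Hab 0.24.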
